A study of Mus musculus with 14 samples.

Results

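The osteoclast gene set comprised 10 genes, Acp5, Ocstamp, Dcstamp, Nfatc1, Calcr, Oscar, Clcn7, Tcirg1, Ostm1 and Car2, picked by symbol from a table of 55487 genes. All 10 were found, and 8 of the 16915 genes that passed the expression filter were members. RNA came from intervertebral discs (IVDs) of 14 male mice, with the caudal discs of a mouse pooled into 1 library. The groups were 3 db/db mice, which are homozygous for a mutant leptin receptor, 3 db/+ heterozygous littermates, 4 STZ-HFD mice and 4 Con+Veh mice. STZ-HFD mice were C57BL/6J animals kept on a high-fat diet for 4 to 6 weeks, injected once with streptozotocin (STZ, a toxin of insulin-producing cells) at 100 mg/kg and held on the diet for another 12 weeks. Con+Veh mice, wild type by label, received chow and the citrate vehicle. The db groups were 12 weeks old, so that cohort, age and treatment cannot be told apart when one model is set against the other. Each model was therefore compared with its own control, db/db with db/+ and STZ-HFD with Con+Veh.

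Osteoclasts are multinucleated cells of the monocyte lineage that resorb bone and mineralized cartilage. The cytokines CSF1 and RANKL drive their formation, and NFATc1 is the transcription factor that switches on most of their specialised genes. Fusion of precursors requires the membrane proteins DC-STAMP and OC-STAMP. A mature cell acidifies a sealed space beneath it with a V-ATPase proton pump and a chloride-proton exchanger, and then secretes cathepsin K, MMP9 and tartrate-resistant acid phosphatase. In the disc, osteoclast-lineage cells are known from the bony endplate and its mineralized cartilage rather than from the nucleus pulposus.

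The members fall into 4 roles. Nfatc1 (ENSMUSG00000033016) encodes the lineage transcription factor. Ocstamp (ENSMUSG00000027670, chromosome 2 from 165393760 to 165400405) and Dcstamp (ENSMUSG00000022303, chromosome 15 from 39745930 to 39760938) encode the fusion proteins. Calcr (ENSMUSG00000023964, chromosome 6 from 3685680 to 3764714) encodes the calcitonin receptor, and Oscar (ENSMUSG00000054594, chromosome 7 from 3609813 to 3616157) a co-stimulatory collagen receptor. The others belong to resorption. Acp5 (ENSMUSG00000001348, chromosome 9 from 22126727 to 22135711) encodes tartrate-resistant acid phosphatase, and Tcirg1 (ENSMUSG00000001750, chromosome 19 from 3896050 to 3907133) the a3 subunit of the proton pump. Clcn7 (ENSMUSG00000036636, chromosome 17 from 25133391 to 25162104) encodes the chloride-proton exchanger, Ostm1 (ENSMUSG00000038280, chromosome 10 from 42583822 to 42702459) its beta subunit, and Car2 (ENSMUSG00000027562, chromosome 3 from 14886273 to 14900770) carbonic anhydrase 2. Coordinates are those of GRCm38. Clcn7, Ostm1 and Tcirg1 are also used by lysosomes of many other cells, and Car2 by red blood cells.

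Clcn7 was the member with the smallest p-value in db/db, whereas its partner Ostm1 and the pump gene Tcirg1 did not move with it, so the 250 bases before a RefSeq start of each are shown here. For Clcn7 and Tcirg1 this is also the start of the gene in GENCODE M21, whereas the Ostm1 start is that of transcript Ostm1-201 and lies inside the annotated gene, some of whose transcripts begin upstream, at 42583822 and just after it. They are RefSeq promoters of GRCm38.p6, read 5′ to 3′ on the strand of the gene, at chr17:25133141-25133390 (plus strand), chr10:42678666-42678915 (plus strand) and chr19:3907134-3907383 (minus strand). Capitals mark CACGTG, the letters of an E-box that many lysosomal genes carry.
Clcn7: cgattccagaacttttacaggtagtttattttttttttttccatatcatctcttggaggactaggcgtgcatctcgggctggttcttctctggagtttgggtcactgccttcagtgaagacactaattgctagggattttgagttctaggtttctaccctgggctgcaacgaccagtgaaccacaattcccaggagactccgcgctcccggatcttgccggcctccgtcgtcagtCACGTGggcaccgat
Ostm1: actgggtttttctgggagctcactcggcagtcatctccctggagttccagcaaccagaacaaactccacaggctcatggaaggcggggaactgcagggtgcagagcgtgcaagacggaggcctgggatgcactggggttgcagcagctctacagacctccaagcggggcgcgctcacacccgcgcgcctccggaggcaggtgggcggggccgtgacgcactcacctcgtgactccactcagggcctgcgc
Tcirg1: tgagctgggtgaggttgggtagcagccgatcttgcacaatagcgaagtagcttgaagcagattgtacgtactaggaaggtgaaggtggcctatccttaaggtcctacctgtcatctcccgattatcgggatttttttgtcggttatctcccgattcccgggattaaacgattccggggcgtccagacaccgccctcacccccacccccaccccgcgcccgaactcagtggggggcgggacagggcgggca
CACGTG reads the same on both strands and lies in the Clcn7 sequence from base -15 relative to the start. It was present in 6.02% of 32817 mouse promoters of the same length and in 1 of the 12 RefSeq promoters searched, from 6 members. That 1 is the Clcn7 promoter shown. Promoters of Nfatc1, Ocstamp, Dcstamp and Car2 were not searched. Letters of 3 other motifs were searched on both strands in the same 12 sequences. TGANTCA (AP-1) had no match and occurs in 6.75% of all promoters. GAGGAA (PU.1) matched in Oscar and in a second Tcirg1 promoter and occurs in 23.3%. TGGAAA (NFAT) matched in Oscar, Acp5 and the Clcn7 promoter shown and occurs in 18.6%. Such matches describe the letters only.

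Total counts ranged from 16076908 to 58943169 per library, and ribosomal RNA genes took 28.1% to 60.3% of them. STZ-HFD replicate 1 stood apart. It was the shallowest library and held counts for 42626 genes against 25194 to 29924 in the other libraries. It also had counts for 90.7% of 1473 olfactory and vomeronasal receptor genes, which are not expected in disc, against 15.95% to 28.3% elsewhere. Results in which it decides a call, and several in which it is the extreme library, are given with and without it. Others, such as the STZ-HFD changes of Clcn7 and Fcer1g and most marker sums, are given with it only. A floor of 3 counts equalled 0.0431 to 0.163 CPM, where CPM is the count scaled to the library total times its TMM factor, a factor set from the bulk of the genes. Con+Veh replicate 1 had a weight of 0.275 in the fit and Con+Veh replicate 3 a weight of 3.05, the extremes of the 14 libraries, so that fitted fold changes lean on the latter.

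Levels of different members were compared per kilobase of exon (RPKM). In db/+ the order was Acp5 (24.9 ± 2.36 RPKM, SD, n = 3), Nfatc1 (17.3 ± 6.93), Tcirg1 (11.8 ± 2.58), Clcn7 (1.71 ± 0.152) and Ostm1 (1.13 ± 0.226). Ocstamp (0.463 ± 0.130), Car2 (0.280 ± 0.195), Oscar (0.202 ± 0.199), Dcstamp (0.194 ± 0.123) and Calcr (0.0278 ± 0.0276) followed. Acp5, Nfatc1 and Tcirg1 overlapped with the next in this order, whereas every Tcirg1 value exceeded every Clcn7 value and every Ostm1 value exceeded every Ocstamp value. In the other cohort Tcirg1 came first, with 9.76 ± 5.83 RPKM in Con+Veh and 6.92 ± 2.85 in STZ-HFD (SD, n = 4). Acp5 reached only 5.26 ± 4.31 RPKM in Con+Veh and 6.89 ± 1.84 in STZ-HFD, within the spread of Tcirg1 and Nfatc1. In db/db Acp5 was at 19.2 ± 10.2 RPKM and Tcirg1 at 12.0 ± 3.61 RPKM (SD, n = 3). By library, Acp5 exceeded Tcirg1 in all db libraries but db/db replicate 3, and in the other cohort in Con+Veh replicate 3, STZ-HFD replicate 1 and STZ-HFD replicate 4. Acp5 is also made by macrophages.

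**Figure D1:**
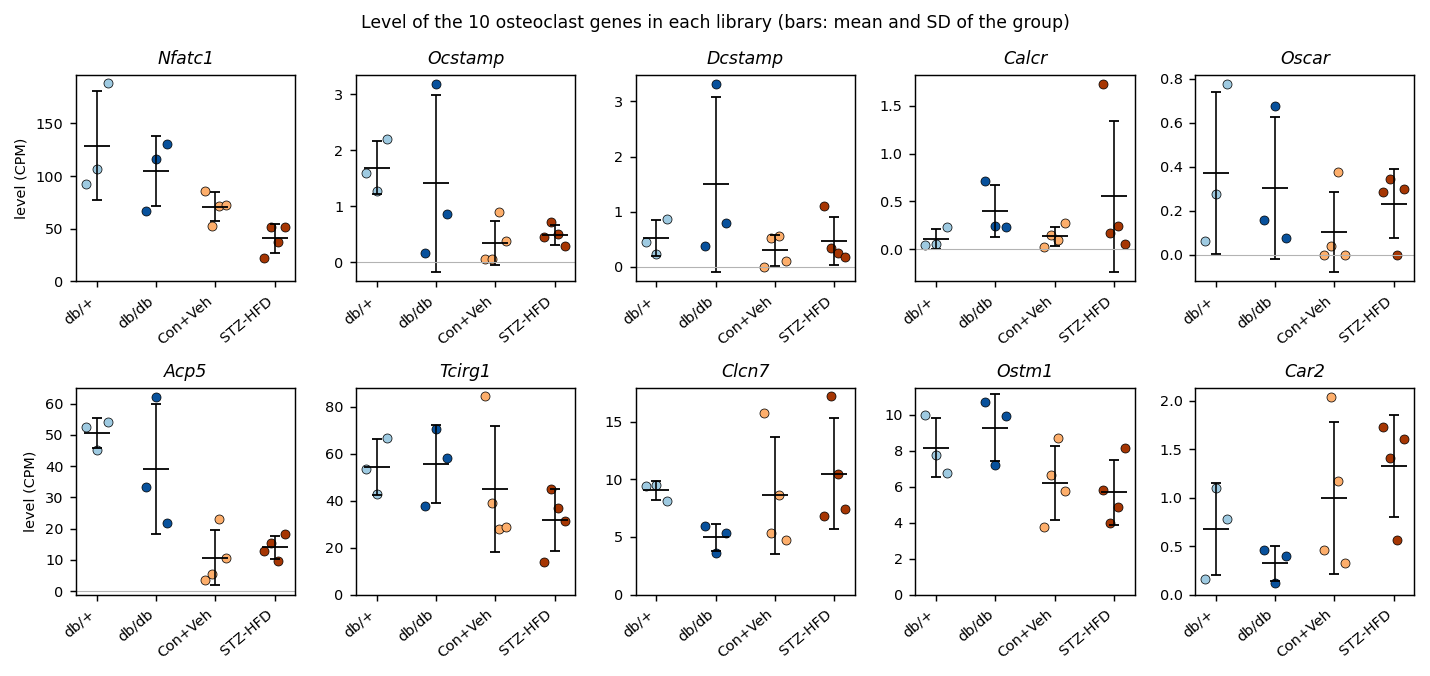
Level of each member in CPM (y axes, from 0, one scale per gene) by group (x axes), with 1 point per library and bars for the mean and SD. Acp5 lies between 21.7 and 62.1 CPM in the db cohort and between 3.48 and 22.98 CPM in the other, and among the 8 tested members the groups of a model separate only for Clcn7 in db/db and Nfatc1 in STZ-HFD. The groups also separate for Calcr in db/db, by a narrow margin at under 1 CPM.

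In db/db IVDs, no osteoclast gene passed the test, and Clcn7 came closest. Its level was 9.46, 9.55 and 8.11 CPM in the db/+ libraries and 5.93, 3.63 and 5.31 CPM in the db/db libraries. Every db/db value was below every db/+ value. The fitted log2 fold change was -0.91 (SE 0.31, 95% interval -1.57 to -0.25), with an unadjusted p of 0.00952 and an adjusted p of 0.116 in limma's test with voom quality weights. Calling required an adjusted p below 0.05 together with a log2 change of 1 or more in either direction. Of all 16915 genes 1.66% were called in db/db, against 0 of 8 members. At an unadjusted p under 0.05 the share of all genes was 21.1% and that of the members was 1 of 8. Groups did not overlap for 25.8% of all genes and for 1 of 8 members. Across 16899 genes, GC-rich genes tended to lower db/db values (Spearman rho of log2 fold change with GC content -0.407), and with this trend removed Clcn7 had a log2 fold change of -0.71 and an unadjusted p of 0.0272. The part of GC content in the difference was not tested further. Without db/db replicate 2, the lowest library, the value was -0.70 with an unadjusted p of 0.0591.

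The partners of Clcn7 in acid secretion did not share its separation. Ostm1, without which the exchanger is unstable, was at 9.97, 7.79 and 6.78 CPM in db/+ and 10.7, 7.21 and 9.95 CPM in db/db, and its log2 fold change was 0.17 (SE 0.27). Tcirg1 was at 53.4, 42.9 and 66.6 CPM in db/+ and 37.7, 70.6 and 58.1 CPM in db/db, with a log2 fold change of 0.04 (SE 0.32). The groups overlapped for both genes. Their 95% intervals, -0.39 to 0.74 for Ostm1 and -0.62 to 0.71 for Tcirg1, leave room for changes of up to about that size. Car2, which supplies protons to the pump, had 8 to 63 counts in these 6 libraries. It was at 0.164, 1.10 and 0.777 CPM in db/+ and 0.456, 0.115 and 0.393 CPM in db/db (log2 fold change -1.09, SE 0.88). Erythroid markers, which Car2 could share a source with, summed to 55.8 to 74.5 CPM in db/+ and 45.8 to 87.2 CPM in db/db, and their part in the Car2 level was not tested.

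Acp5 was even among the db/+ mice and uneven among the db/db mice. It was at 52.7, 45.1 and 54.0 CPM in db/+ and 33.2, 62.1 and 21.7 CPM in db/db. Of the db/db libraries, 2 of 3 lay below all db/+ libraries and the remaining library above them, so that the SD was 20.8 CPM in db/db against 4.80 in db/+. The log2 fold change was -0.49 (SE 0.44), and leaving out a library in turn moved it between -0.90 and -0.14. The fusion genes showed the same outlying mouse. Ocstamp was at 1.60, 1.27 and 2.21 CPM in db/+ and 0.173, 3.19 and 0.864 CPM in db/db, and Dcstamp at 0.451, 0.226 and 0.870 CPM in db/+ and 0.378, 3.32 and 0.801 CPM in db/db. db/db replicate 2 held the highest Acp5, Ocstamp, Dcstamp and Tcirg1 levels of its group. It also held the lowest Clcn7, Ostm1 and Car2 levels. Some marker lists were also highest in this library, with sums of 22.4 CPM for neutrophil and marrow genes (1.89 and 1.73 CPM in the other db/db libraries), 87.2 CPM for erythroid genes (74.7 and 45.8 CPM) and 518 CPM for adipocyte genes (357 and 273 CPM). The sum of osteoclast markers other than the members was highest there too, at 273 CPM (95.4 and 161 CPM), of which Mmp9 made up 238 CPM. Tnfrsf11a of the same list was instead highest in db/db replicate 3, at 12.6 CPM. Macrophage (174 CPM against 249 and 130 CPM), disc and cartilage, and endothelial sums lay in the middle of the group. The osteoblast and osteocyte sum (723 CPM) and the skeletal muscle sum (3359.7 CPM) were the lowest. The part of other cells was not tested. The log2 fold change of Ocstamp was -0.94 (SE 0.69), and without this library -2.04. That of Dcstamp was 1.27 (SE 0.82), and without this library Dcstamp no longer passed the expression filter, which it met in exactly 3 libraries. Nfatc1 was at 92.4, 106 and 188 CPM in db/+ and 67.0, 116 and 131 CPM in db/db (log2 fold change -0.24, SE 0.31). The adjusted p of these 7 members other than Clcn7 was between 0.388 and 0.956 in limma's test.

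In STZ-HFD IVDs, no osteoclast gene passed the test either, and the member nearest to it was Nfatc1. Its level was 86.0, 52.6, 71.8 and 72.2 CPM in Con+Veh and 22.3, 51.5, 37.7 and 51.6 CPM in STZ-HFD. Every STZ-HFD value was below every Con+Veh value, although the gap between the nearest libraries was small. The log2 fold change was -0.73 (SE 0.25, 95% interval -1.26 to -0.21), with an unadjusted p of 0.0087 and an adjusted p of 0.116 in limma's test. Called genes made up 2.61% of all genes in STZ-HFD, against 0 of 8 members. Genes with an unadjusted p under 0.05 made up 17.9%, against 1 of 8 members, and genes whose groups did not overlap 4.74%, also against 1 of 8. STZ-HFD replicate 1 was the lowest library, and without it the log2 fold change was -0.67 with an unadjusted p of 0.0147. In bulk RNA, fewer cells of a type and less RNA per cell cannot be told apart. Which cells the Nfatc1 RNA came from was not tested.

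The remaining members overlapped between STZ-HFD and Con+Veh. Acp5 was at 3.48, 5.53, 22.98 and 10.8 CPM in Con+Veh and 12.8, 15.3, 9.54 and 18.3 CPM in STZ-HFD. Its mean was higher in STZ-HFD (13.99 against 10.7 CPM), but the fit gave a log2 fold change of -0.06 (SE 0.43), since Con+Veh replicate 3, the highest control, had the largest weight. Without that library it was 0.89, and with equal weights 0.87. The sign was reversed in 9 of 26 alternatives, so that no direction was settled for Acp5. Con+Veh replicate 3 also held the highest Con+Veh sums of neutrophil and marrow markers (15.6 CPM against 1.03 to 4.02 CPM), erythroid markers (98.8 CPM), adipocyte markers (788 CPM) and macrophage markers (309 CPM). It was likewise highest for osteoclast markers other than the members (135 CPM against 16.6 to 61.7 CPM), of which Mmp9 made up 115 CPM. Osteoblast and osteocyte markers (362 CPM) and endothelial markers (850 CPM, with 845 CPM in Con+Veh replicate 4) were highest there too. The disc and cartilage sum (2739 CPM) and the skeletal muscle sum (10638 CPM) were not. The part of any of these cells was not tested. Means and fitted values also had opposite signs for Dcstamp (0.470 against 0.298 CPM, log2 fold change -0.12, SE 1.36) and Tcirg1 (31.9 against 44.9 CPM, log2 fold change 0.10, SE 0.27). Tcirg1 was at 84.5, 38.8, 27.9 and 28.6 CPM in Con+Veh and 14.02, 45.0, 36.9 and 31.5 CPM in STZ-HFD, a span set by Con+Veh replicate 1 above and STZ-HFD replicate 1 below. Without STZ-HFD replicate 1 the Tcirg1 log2 fold change was 0.22. Clcn7 was at 15.8, 5.32, 8.65 and 4.73 CPM in Con+Veh and 6.82, 17.3, 10.5 and 7.43 CPM in STZ-HFD (log2 fold change 0.43, SE 0.31). Ostm1 was at 3.75, 6.63, 8.69 and 5.76 CPM in Con+Veh and 5.80, 3.99, 4.85 and 8.18 CPM in STZ-HFD (log2 fold change -0.28, SE 0.30).

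The low members carried few counts in this cohort. Ocstamp had 2 to 21 counts per library and lay between 0.0543 and 0.893 CPM in Con+Veh and between 0.297 and 0.722 CPM in STZ-HFD (log2 fold change 0.10, SE 1.23). Dcstamp had 0 to 27 counts, the highest in STZ-HFD replicate 1, and without that library it did not pass the expression filter. Car2 was at 0.462, 2.04, 1.18 and 0.326 CPM in Con+Veh and 1.73, 1.41, 0.559 and 1.61 CPM in STZ-HFD (log2 fold change 0.29, SE 0.72, and 0.15 without STZ-HFD replicate 1), while erythroid markers summed to 26.4 to 98.8 CPM and 65.1 to 83.0 CPM. The adjusted p of the 7 members other than Nfatc1 was between 0.505 and 0.979 in limma's test.

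**Figure D2:**
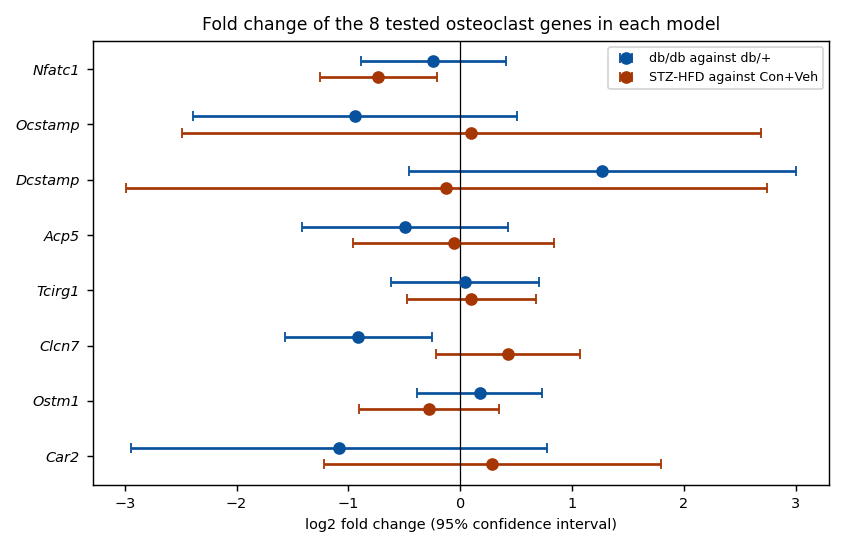
Fitted log2 fold change (x axis) of the 8 tested members (y axis) in db/db against db/+ and in STZ-HFD against Con+Veh, with 95% confidence intervals as bars. The interval excludes 0 for Clcn7 in db/db (-0.91) and for Nfatc1 in STZ-HFD (-0.73), and the 2 fusion genes and Car2 have the widest intervals.

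Calcr and Oscar, the receptors, were too low to be tested. Calcr had 3 counts or fewer in 5 of the 14 libraries and Oscar in 5. Calcr was at 0.0410, 0.0522 and 0.233 CPM in db/+, and at 0.708, 0.244 and 0.236 CPM in db/db, so that all db/db values were above the db/+ values, by a narrow margin and on 2 to 45 counts. In the other cohort Calcr was at 0.0272 to 0.272 CPM in Con+Veh. In STZ-HFD it was at 1.73, 0.172, 0.248 and 0.0595 CPM, where the high value is the 42 counts of STZ-HFD replicate 1, the library with counts on most receptor genes. Oscar was at 0.0615, 0.278 and 0.777 CPM in db/+ and 0.157, 0.675 and 0.0786 CPM in db/db. It had 0 counts in 2 of 4 Con+Veh libraries and in 1 of 4 STZ-HFD libraries, and at most 10 in the others of that cohort.

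Whether a member responded differently in the models was tested as the difference of the log2 fold changes, db/db minus STZ-HFD. No member passed an adjusted p of 0.05, whereas 1.77% of all genes did. At an unadjusted p under 0.05 there was 1 of 8 members, against 17.3% of all genes. That member was Clcn7, with a log2 fold change of -0.91 in db/db, 0.43 in STZ-HFD and a difference of -1.34 (SE 0.44, unadjusted p 0.00697, adjusted p 0.12 in limma's test). For Nfatc1, the log2 fold changes of -0.24 and -0.73 differed by 0.49 (SE 0.39), with an adjusted p of 0.568 in limma's test, so that a response particular to STZ-HFD was not shown. Across the 8 tested members the median log2 fold change was -0.36 in db/db and 0.02 in STZ-HFD, beside -0.04 and -0.04 over all genes tested, with 3 and 4 members above 0.

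The members differed in how they varied from mouse to mouse. With the group means removed, log2 CPM of Acp5 over the 14 libraries was most like that of Rrnad1 (Pearson r 0.951), Dusp4 (0.899), Gm7496 (0.898), Tiaf2 (0.887) and Dctd (0.874) among 16914 other genes. Of the 5 tested osteoclast markers, Mmp9, the secreted gelatinase, came at place 8 (r 0.846), Atp6v0d2, a proton pump subunit required for fusion, at place 25 (r 0.821), Ctsk at 691, Itgb3 at 1190 and Tnfrsf11a at 9363 (r -0.0293). Single markers of other cells came as high. Among these, named after their values were seen, were Emcn of endothelium at place 7 (r 0.852), Hba-a1 of red blood cells at 28 (r 0.819), S100a9 of neutrophils at 117 (r 0.759) and Kdr of endothelium at 127 (r 0.755). Other genes of these lists, also named afterwards, were lower. They were Cdh5 (r 0.349), Pecam1 (r 0.0179) and Tie1 (r -0.225) of endothelium, and Alas2 (r 0.311) of the erythroid list. A high likeness to Acp5 was thus reached by single genes of osteoclast lists and of other lists. Among the members, Ocstamp came at place 205 (r 0.725), Dcstamp at 1128 (r 0.537) and Ostm1 at 1877 (r 0.442). Nfatc1 (r 0.0812), Car2 (r -0.0244), Clcn7 (r -0.343) and Tcirg1 (r -0.377) were not among the genes like Acp5. These values describe libraries that share depth, dissection and weights, and carry no test.

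Within each cohort, Acp5 was also set against 12 genes, the other 7 tested members and 5 osteoclast markers, which made 24 relations. None passed a Benjamini-Hochberg adjustment over the 24 (smallest adjusted p 0.165, exact permutation test). In the 8 libraries of the STZ-HFD cohort, Mmp9 had Pearson r 0.804 (exact permutation p 0.0152, adjusted 0.182) and Spearman rho 0.833 (exact permutation p 0.0154, adjusted 0.200). Without the 2 libraries farthest from the Acp5 median, Con+Veh replicates 1 and 2, r was 0.763. In the 6 libraries of the db cohort, Mmp9 had r 0.669 (exact permutation p 0.157, adjusted 0.328) and rho 0.886 (exact permutation p 0.0333, adjusted 0.238), and r fell to 0.486 without db/db replicates 1 and 3. Ocstamp had r 0.880 in the STZ-HFD cohort (exact permutation p 0.00687, adjusted 0.165) and rho 0.691 (exact permutation p 0.0694, adjusted 0.238), but r was 0.404 without Con+Veh replicates 1 and 2, on which the relation therefore rests. In the db cohort Ocstamp had r 0.654 (exact permutation p 0.157, adjusted 0.328) and rho 0.943 (exact permutation p 0.0167, adjusted 0.200), and r was 0.958 without db/db replicates 1 and 3. The other 4 markers were less even. Pearson r in the db cohort and the STZ-HFD cohort was 0.607 and 0.630 for Ctsk, 0.555 and 0.650 for Atp6v0d2, 0.688 and 0.593 for Itgb3 (rho 0.0857 in the db cohort) and -0.647 and 0.356 for Tnfrsf11a. For Tcirg1 the sign differed between cohorts, with r 0.363 in the db cohort (exact permutation p 0.478, adjusted 0.637) and -0.616 in the other (exact permutation p 0.107, adjusted 0.328).

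**Figure D3:**
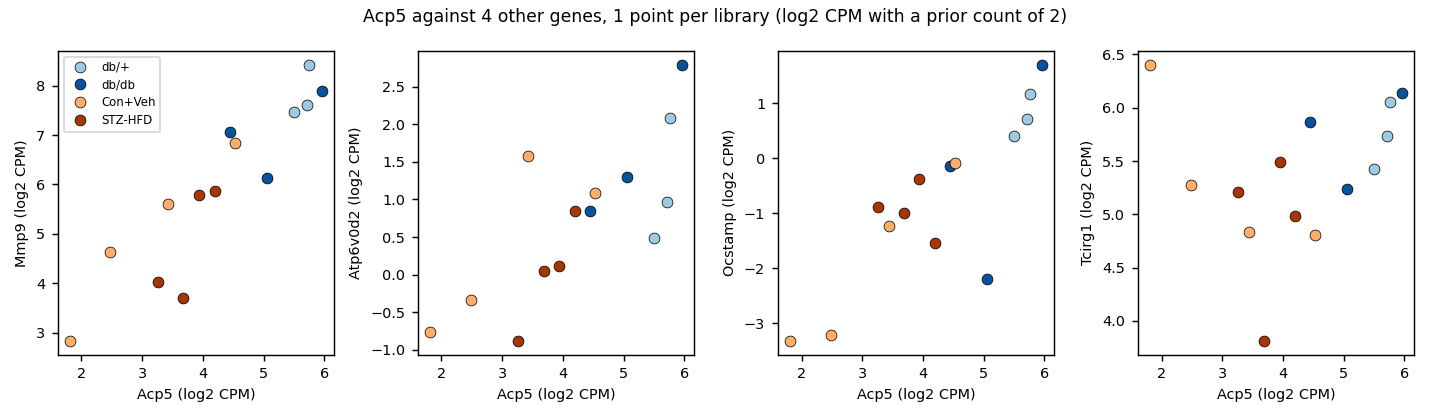
Level of Mmp9, Atp6v0d2, Ocstamp and Tcirg1 (y axes) against Acp5 (x axes), all in log2 CPM with a prior count of 2, with 1 point per library coloured by group. Libraries with more Acp5 had more Mmp9 (r 0.804 in the STZ-HFD cohort and 0.669 in the db cohort), whereas Tcirg1 had r -0.616 and 0.363.

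The wider osteoclast pathway was read from 5 lists holding 47 genes, of which 46 were tested. In db/db, 0 of 46 passed the test, and 5 higher and 5 lower genes had an unadjusted p under 0.05. edgeR's quasi-likelihood test and DESeq2 called 0 of these genes in db/db, with 5 each at an unadjusted p under 0.05. The quasi-likelihood test called 0 of all genes in db/db, so its 0 here was fixed in advance. The groups did not overlap for 13 of the 46, beside 25.8% of all genes, and the share at an unadjusted p under 0.05 was 21.1% over all genes. Among the ligands and receptors (7 genes), the largest change was that of Tnfrsf11a, which encodes RANK, the receptor of RANKL. Tnfrsf11a was at 3.92, 6.68 and 4.93 CPM in db/+ and 7.11, 8.83 and 12.6 CPM in db/db, with every db/db value above every db/+ value (log2 fold change 0.85, SE 0.26, adjusted p 0.0875 in limma's test). Tnfrsf11b, which encodes the RANKL decoy receptor osteoprotegerin, was named after its values were seen, at 17.6, 23.6 and 19.9 CPM in db/+ and 13.7, 10.05 and 14.5 CPM in db/db (log2 fold change -0.71, SE 0.29, adjusted p 0.181 in limma's test). RANKL itself (Tnfsf11), likewise named afterwards, was at 0.383 to 0.862 CPM in db/+ and 0.582 to 0.632 CPM in db/db (log2 fold change -0.03, SE 0.56).

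The other lists gave no calls in db/db either, and the members with the largest changes did not pass. Of 12 co-receptor and signaling genes the largest change was that of Fcer1g, the ITAM adaptor that pairs with OSCAR, with a log2 fold change of 0.73 (SE 0.36). Of 8 transcription factors it was Prdm1, a repressor of anti-osteoclast genes, at 0.57 (SE 0.43). Of 11 resorption genes it was Mmp9, at 195, 178 and 342 CPM in db/+ and 70.4, 238 and 134 CPM in db/db (log2 fold change -0.74, SE 0.70). Of 8 tested adhesion and fusion genes it was Adam8, at 0.636, 0.313 and 0.513 CPM in db/+ and 1.05, 1.05 and 1.08 CPM in db/db (log2 fold change 1.22, SE 0.46, adjusted p 0.144 in limma's test). The list medians lay between -0.18 and 0.08, beside -0.04 over all genes.

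In STZ-HFD, 3 of 46 pathway genes passed the test, all lower, beside 2.61% of all genes. An unadjusted p under 0.05 was reached by 15 lower genes (the 3 included) and 1 higher gene, beside 17.9% of all genes. The groups did not overlap for 2 of 46, beside 4.74% of all genes, and the median was -0.40 beside -0.04 over all genes. Fcer1g was at 5.35, 13.1, 16.3 and 8.64 CPM in Con+Veh and 1.44, 4.95, 2.702 and 6.99 CPM in STZ-HFD, where the highest STZ-HFD library overlapped with the lowest control (log2 fold change -1.58, SE 0.40, adjusted p 0.0358 in limma's test). Spi1, which encodes PU.1, a factor needed for macrophages and osteoclasts alike, was at 8.01, 3.66, 9.40 and 5.27 CPM in Con+Veh and 2.67, 3.75, 1.21 and 3.12 CPM in STZ-HFD, where 1 STZ-HFD library lay above the lowest control (log2 fold change -1.65, SE 0.44, adjusted p 0.048 in limma's test). Bcl6, a repressor that restrains osteoclast genes, was at 136, 78.4, 88.4 and 129 CPM in Con+Veh and 30.7, 49.2, 51.5 and 56.2 CPM in STZ-HFD, without overlap (log2 fold change -1.01, SE 0.21, adjusted p 0.0196 in limma's test). The called genes thus included an activating factor and adaptor as well as a repressor of the osteoclast programme.

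These calls depended on the test and on single mice. With edgeR's quasi-likelihood method 0 of the 46 genes passed in STZ-HFD, with 11 at an unadjusted p under 0.05, and a fit with the replicate number as a block called 0, with 14. The quasi-likelihood test called few of all genes in STZ-HFD, with the count given below, so its 0 of 46 says little about these genes. None was called without Con+Veh replicate 3, Con+Veh replicate 4, STZ-HFD replicate 3 or STZ-HFD replicate 4, and 2 were called without STZ-HFD replicate 1, when Bcl6 had a log2 fold change of -0.94 (adjusted p 0.0215 in limma's test) and missed the fold minimum. The number called over all genes varied as well, from 17 to 642 when leaving out a library in turn. The count of called pathway genes was therefore too unstable to single out these genes. The lower median and the 15 lower genes at an unadjusted p under 0.05 were not tested as a set. Of the other lists, Csf1 was the largest change among ligands and receptors (log2 fold change -0.83, SE 0.26), Tyrobp, the ITAM adaptor DAP12, among co-receptors (-1.61, SE 0.51) and Mmp9 in the resorption list (-1.08, SE 0.55). In the adhesion and fusion list it was Cd47, a fusion partner on precursors (-0.76, SE 0.20). Cd47 had an adjusted p of 0.0409 in limma's test but a fold below the minimum, as did Lgr4, another RANKL receptor (-0.78, adjusted p 0.0281), which was named after its values were seen. The difference of the responses passed for 2 of 46 genes, beside 1.77% of all genes, which were Fcer1g (2.31, SE 0.53, adjusted p 0.0386) and Cd47 (1.42, SE 0.32, adjusted p 0.0336), higher in db/db relative to STZ-HFD. At an unadjusted p under 0.05 there were 9 of 46, beside 17.3% of all genes. With edgeR's quasi-likelihood method 0 of the 46 passed here too, with 6 at an unadjusted p under 0.05. That method called few of all genes for this difference as well.

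**Figure D4:**
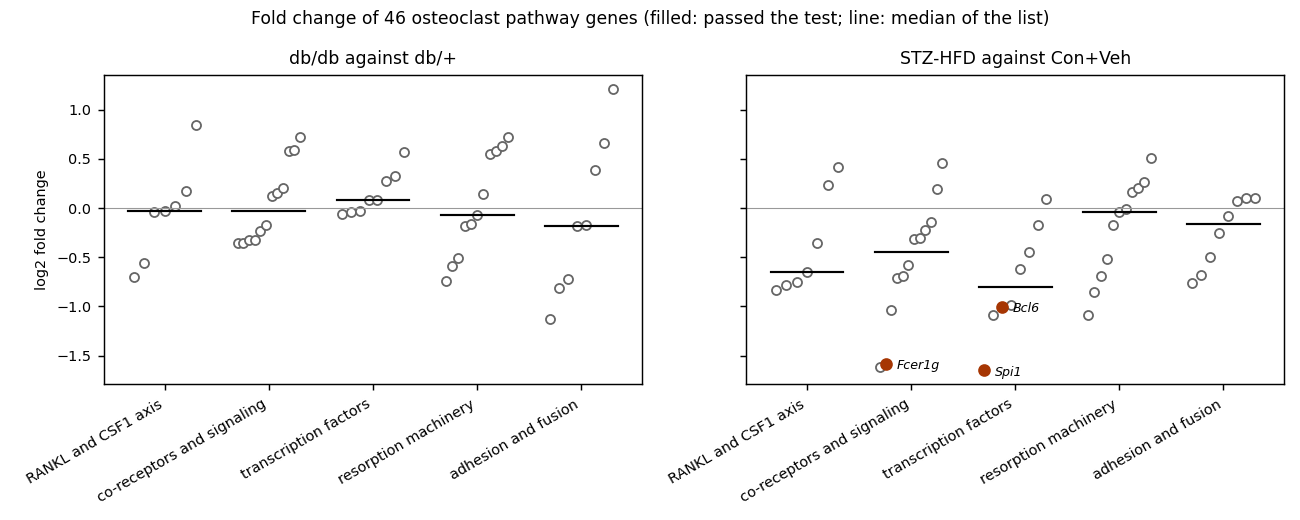
Fitted log2 fold change (y axis) of 46 tested pathway genes in 5 lists (x axis), in db/db against db/+ (left) and STZ-HFD against Con+Veh (right), with filled points for genes that passed the test and lines at the list medians. No gene is filled for db/db, and Fcer1g, Spi1 and Bcl6 are filled for STZ-HFD, all below 0.

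Markers of other cells moved between the groups as well. Over all genes tested, the share that passed the same test was 1.66% for db/db and 2.61% for STZ-HFD, in either direction. Macrophage markers (most abundant over all libraries, Lyz2) summed to 154 to 309 CPM in Con+Veh and 112 to 191 CPM in STZ-HFD, and 3 of 8 were called lower, with all 8 detected in every library. Their part in the lower Fcer1g, Spi1 and Nfatc1 levels was not tested. Csf1r stands in both the macrophage and the pathway lists, and all 6 osteoclast markers stand in the pathway lists. Osteoblast and osteocyte markers, led by Ibsp, summed to 1208 to 1855 CPM in db/+, 723 to 919 CPM in db/db, 110 to 362 CPM in Con+Veh and 87.8 to 243 CPM in STZ-HFD, and 0 of 8 were called in db/db and 2 of 8, both lower, in STZ-HFD. The db cohort therefore had both more bone-cell transcripts and more Acp5, and how much endplate each dissection held was not measured. Osteoclast markers other than the members, led by Mmp9, summed to 204 to 367 CPM in db/+ and 95.4 to 273 CPM in db/db. They summed to 16.6 to 135 CPM in Con+Veh and 26.7 to 78.6 CPM in STZ-HFD, with 0 of 5 tested called in either model. Siglec15, the lowest of them, was at 0 counts in 1 Con+Veh and 1 STZ-HFD library, and the other 5 had counts in every library.

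The other tissues were read from the same kind of list, and the all-gene shares just given are the background for their counts too. The gene named for each list is the most abundant over all 14 libraries and does not lead in every group. Disc and cartilage markers (Col2a1) summed to 12717 to 23166 CPM in db/+ and 4898 to 13156 CPM in db/db, and to 1797 to 3182 CPM in Con+Veh and 729.9 to 1583 CPM in STZ-HFD, where 4 of 8 were called lower. Skeletal muscle markers (Car3) summed to 5346 to 11577 CPM in db/+, 3359.7 to 5298 CPM in db/db, 10607 to 12777 CPM in Con+Veh and 13440 to 25250 CPM in STZ-HFD (21828 to 25250 CPM without STZ-HFD replicate 1), with 1 of 8 called lower in db/db and 3 of 8 higher in STZ-HFD. Adipocyte markers (Cfd) had 3 of 6 called higher in db/db and 0 of 6 in STZ-HFD, beside 1.66% and 2.61% of all genes. Cfd itself was not among those called in db/db, where its log2 fold change was -0.60 (SE 0.36). Endothelial markers (Kdr) had 0 of 5 called in either model, and erythroid markers (Hbb-bs) 0 of 5 tested. Neutrophil and marrow markers (S100a8) summed to 0.678 to 22.4 CPM over all libraries and had 0 of 2 tested called, and 7 of the 8 were at 0 counts in at least 1 library.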

How the data were processed

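RNA of pooled caudal IVDs was sequenced from 14 mice, 1 library per mouse, after amplification of the cDNA without molecular identifiers. The authors aligned reads with STAR 2.7.9a1 to Ensembl release 101 (GRCm38), and deposited gene counts from featureCounts 2.0.32 without normalization, and estimated counts per transcript from Salmon 1.5.23 (versions as printed in the sources). The strand setting was not given in the sources used here, so counts of Acp5, Nfatc1 and Ostm1 cannot be told apart from those of the genes on their other strand, to which the table assigns 39, 214 and 0 counts in all against 19222, 56949 and 4622. Repeated lines of the gene table (287, with identical values) were used once, and groups came from the labels.

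From the gene counts, genes with a CPM (of the library total) above 1 in at least 3 libraries were tested with limma 3.58.1 voomWithQualityWeights after TMM scaling in edgeR 4.0.16 (R 4.3.3), with 1 mean per group over all 14 libraries and Benjamini-Hochberg adjustment within each contrast. The study's methods name this test, so edgeR's quasi-likelihood test served as an alternative. Calling required an adjusted p below 0.05 and a log2 change of 1 or more in either direction, without the fold minimum for the difference of responses. RPKM used exon lengths of GENCODE M21, and relations within a cohort used log2 CPM with a prior count of 2 and two-sided exact permutation tests (SciPy 1.17.1).

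Members and lists were chosen with earlier results of these data known. The text names every member, each pathway gene called in either model, the largest change per list and model, the most abundant gene of each marker list and the 5 genes most like Acp5. Genes outside this rule are marked as named after their values were seen, except where they serve as background to a named gene, and 1 gene is not reported here. Tried as alternatives were voom without quality weights, edgeR's quasi-likelihood test, DESeq2 1.42.0, RLE size factors, no filter or filterByExpr, each model alone, a replicate block, transcript sums (rounded to whole numbers), removal of ribosomal RNA genes, removal of the GC trend over 20 bins, no fold minimum, and leaving out libraries. On simulated counts in which 200 of 16546 genes (db/db) and of 16488 genes (STZ-HFD) were changed by 2 log2 units, the main test called 72% and 76.5% of them, with 5 other calls each. Only genes with a mean above 2 CPM were changed, and no library was made to stand apart. Recovery of low genes such as Ocstamp, Dcstamp and Car2, and of smaller changes, was therefore not measured. edgeR's quasi-likelihood test called 74.5% and 87% of the changed genes there, unlike its few calls on the real counts. Depth was 16076908 to 58943169 counts per library, floors of 3 counts cover counting error only, and each library is a separate mouse, so p-values measure the spread between mice.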

Additional observations from a re-analysis of the deposited data

Results flagged for a closer look

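In groups of 4 libraries, a member's highest or lowest value was set against its nearest neighbour (Dixon's ratio and its 95% critical value), which chance exceeds in about 1 of 20 groups. Of 20 groups, 3 exceeded it. Calcr was at 1.73 CPM in STZ-HFD replicate 1, far above the other STZ-HFD libraries. Oscar was at 0.376 CPM in Con+Veh replicate 3, far above the other Con+Veh libraries, and at 0 in STZ-HFD replicate 3, far below the other STZ-HFD libraries. All 3 values concern genes with at most 50 counts in any library.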

How the results depend on the processing

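The count of osteoclast genes called was 0 under each of 28 alternatives for db/db, 28 for STZ-HFD and 26 for the difference of the responses, among them each leave-one-out fit, while at an unadjusted p under 0.05 edgeR's quasi-likelihood test gave 0 members for db/db and 1 for STZ-HFD. That test called 0, 29 and 5 of all genes, against 281, 441 and 300 in the main fit. The leave-one-out fits called 21 to 392 of all genes in db/db, 17 to 642 in STZ-HFD and 4 to 425 for the difference. At such shares a count of 0 members is likely in any case, so these counts say little about the members. Clcn7 kept its direction in db/db in 27 of 27 alternatives (log2 fold change -1.05 to -0.70, adjusted p 0.0737 to 0.467) and in the difference in 26 of 26 (-1.65 to -1.13). Nfatc1 kept its direction in STZ-HFD in 26 of 26 (-0.91 to -0.61, adjusted p 0.0855 to 0.567).

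The direction of uncalled members reversed in STZ-HFD for Acp5 (0.40 with edgeR's quasi-likelihood test, 0.42 with DESeq2, 0.87 without quality weights, 0.22 without a filter, 0.0305 with filterByExpr, 0.0126 with the GC trend removed), Dcstamp (0.63, 0.68, 1.24 and 0.0292 in the first 4 of these, 0.11 with transcript sums and 0.68 without the 2 libraries named alike, Con+Veh replicate 2 and STZ-HFD replicate 4), Tcirg1 (-0.50 with edgeR, -0.50 with DESeq2 and -0.46 without quality weights) and Ocstamp (-0.29 with transcript sums). Leaving out a library in turn gave -0.26 to 0.89 for Acp5, -0.23 to 0.84 for Car2, -0.53 to 0.98 for Dcstamp, -0.23 to 1.39 for Ocstamp, -0.61 to 0.0690 for Ostm1 and -0.12 to 0.22 for Tcirg1 in STZ-HFD, and -2.04 to 0.0741 for Ocstamp, -0.45 to 0.0497 for Nfatc1 and -0.16 to 0.30 for Tcirg1 in db/db. The cause was not tested.

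Same-numbered libraries of a control and its model did not deviate together (mean r -0.0798 in the db cohort and -0.108 in the other), and no pairing was used in the main fit. Each mean rests on few pairs, so this check cannot exclude a shared litter or batch. With the replicate block, 0 members were called, and Tcirg1 in db/db (-0.0233) and Car2 in STZ-HFD (-0.0109) changed sign.

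The count of pathway genes called in STZ-HFD, 3 in the main fit, was 6 with no minimum on the fold change, 0 with edgeR's quasi-likelihood test, without quality weights, without a filter, with the replicate block, with transcript sums (7 at an unadjusted p under 0.05, against 16) and with each model fitted alone, 1 with filterByExpr and without the 2 libraries named alike, and 0 to 3 when leaving out a library in turn. For the difference of the responses, 2 in the main fit, it was 1 with DESeq2 and with the GC trend removed, with or without STZ-HFD replicate 1 (the latter setting was chosen after seeing the data), 0 with edgeR's quasi-likelihood test, without quality weights, without a filter, with filterByExpr, with the replicate block, with transcript sums and without the 2 libraries, and 0 to 2 when leaving out a library in turn. Fcer1g, Spi1 and Bcl6 were called in 13, 9 and 10 of 26 alternatives other than transcript sums. Alternatives for the pathway counts were also added after seeing the data. The all-gene calls of the leave-one-out fits given above apply to these counts too. Transcript sums were not used for Acp5, Nfatc1, Calcr, Oscar and Tcirg1, of which a transcript each is not analysed here. Whether all transcripts of the pathway genes enter their sums was not checked.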
